A study of Homo sapiens with 15 samples.

Results

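The comparison set 1 array of Caco-2 cells given 100 mM NaCl against 1 array of Caco-2 cells in medium alone, both after 24 h. Caco-2 is a human colon cancer line of epithelial cells, which can mature into an absorptive layer, and here it had not been differentiated. The same series holds 13 further arrays, 1 of cells given 5 mM butyrate and 12 of cells given fluid from a colon simulator at 10% by volume. The fluids came from 48 h simulations with 0%, 1% or 2% polydextrose, a poorly digested glucose polymer, and from vessels 1 to 4 of the simulator at each concentration. Per the labels the additions were diluted in serum-free DMEM. The labels name no separate vehicle for the medium array, and the osmolality reached with NaCl is not given in the sources used here. All 15 arrays were single, so no difference below has a replicate or a test, and treatment, culture and array cannot be told apart.

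Genes were taken up by a rule of size. A gene was compared where the brighter of the NaCl and medium arrays had a log2 GCRMA value of at least 6, and it was counted where the arrays differed by at least 1 on the log2 scale, which is 2-fold. Each gene was read from 1 probe set, the one with the highest mean over the 15 arrays. Of 19775 genes with a probe set, 7874 were compared and 1307 were counted.

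Raised NaCl outside a cell draws water out and makes the medium hypertonic. Cells known to adapt to this activate the transcription factor NFAT5, which turns on carriers for compatible osmolytes such as myo-inositol, betaine and taurine, and they later replace part of the gained salt with these osmolytes. Kidney medulla cells are the best studied case, and colon epithelium meets similar shifts in its lumen.

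With NaCl, 703 genes were higher than in medium, which is 8.93% of the genes compared, and 604 were lower, which is 7.67%. The median difference over all genes compared was 0.02, and its 5th and 95th percentiles were -1.22 and 1.31. As a yardstick for single arrays, the same rule was put to pairs of arrays from neighbouring vessels 2 to 4 at 1 concentration, which held different fluids and are not replicates. These 6 pairs gave 5 to 56 genes, or 0.0654% to 0.735% of those compared. The 3 pairs of vessel 2 against vessel 1 gave 124 to 436 genes, or 1.61% to 5.54%. NaCl against medium gave more genes than any of these 9 pairs, at 16.6% of those compared. RNA came from whole cultures, so fewer cells with a transcript and less of it per cell cannot be told apart.

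**Figure D1:**
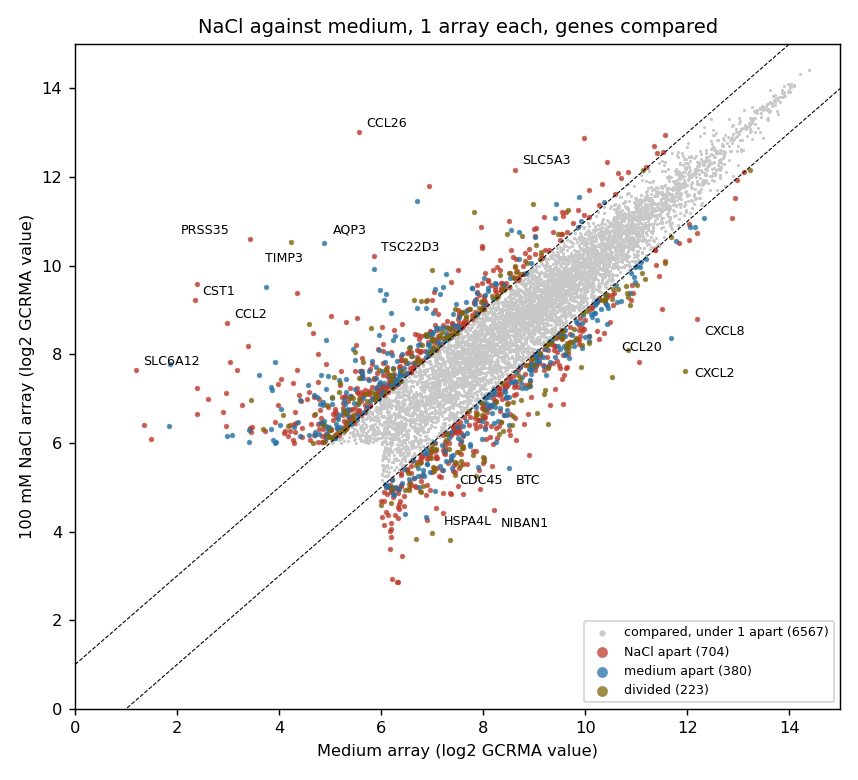
Log2 GCRMA value on the 100 mM NaCl array (vertical axis) against the medium array (horizontal axis), 1 point per gene compared, with dashed lines at a difference of 1 in either direction. The 1307 counted genes are coloured by where the other 13 arrays lay, and grey points are the 6567 genes under 1 apart; CCL26, at 13.01 with NaCl and 5.56 in medium, lies farthest above the lines.

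The other 13 arrays show which of the pair lay nearer to the rest of the series. For each counted gene every other array was put with NaCl or with medium, whichever value was nearer. NaCl stood apart, with at least 11 of 13 arrays nearer to medium, in 704 genes (53.9%), of which 380 were higher and 324 lower. Medium stood apart, with at least 11 of 13 arrays nearer to NaCl, in 380 genes (29.1%), of which 204 were higher and 176 lower. The remaining 223 genes (17.1%) were divided. Nearer does not mean close. The median of the 13 lay beyond medium, on the side away from NaCl, in 198 of the higher and 206 of the lower genes. It lay beyond NaCl in 110 and 106 genes. Over all 7874 genes compared, whatever their difference, the same rule put 46.3% with NaCl apart and 34% with medium apart, so the counted genes leaned somewhat further towards NaCl. The 13 arrays are not independent votes, since 12 of them carried fluids of 1 kind. A gene in which medium stood apart differed from medium with butyrate or fluid as well as with NaCl, and its difference is not particular to salt.

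Most genes lay at the ends of this split. Of the 703 higher genes, 303 had all 13 other arrays nearer to medium and 130 had all 13 nearer to NaCl. Of the 604 lower genes these numbers were 254 and 89. The NaCl array lay outside all other 14 arrays by at least 1 in 202 of the higher and 191 of the lower genes of its class. The medium array did so in 102 and 37 genes of its own.

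**Figure D2:**
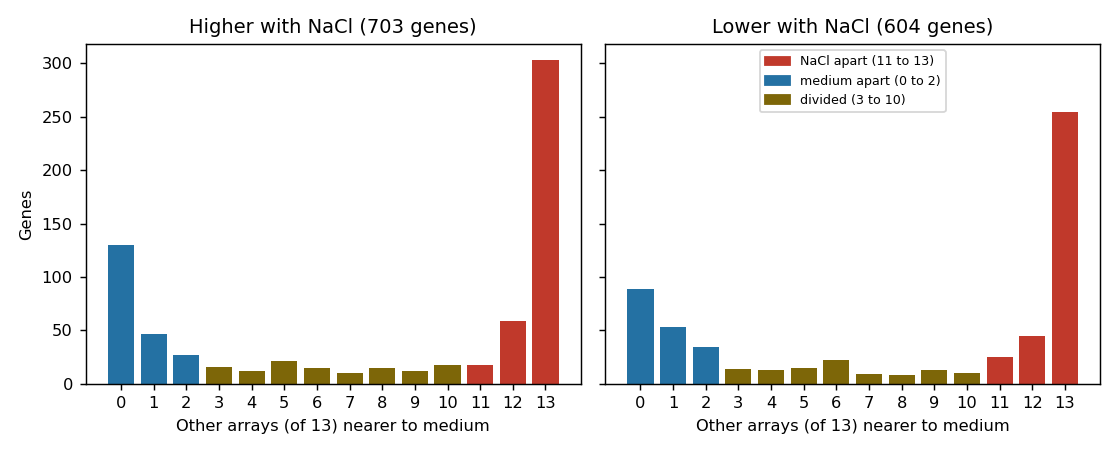
Number of counted genes (vertical axis) by how many of the other 13 arrays were nearer to medium than to NaCl (horizontal axis), for genes higher (left) and lower (right) with NaCl. Both panels pile up at the ends, with 303 and 254 genes at 13 and 130 and 89 genes at 0.

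Single arrays differed in the number of the 1307 genes in which they lay nearer to medium than to NaCl. Butyrate was nearer to medium in 55.9% of them. The 0% fluids were nearer to medium in 75.5% (vessel 1) and 65% to 66.3% (vessels 2 to 4), the 1% fluids in 65.2% (vessel 1) and 58.1% to 59.7%, and the 2% fluids in 66.3% (vessel 1) and 56.9% to 58.9%. At each concentration the array of vessel 1 thus had the largest share of genes nearer to medium than to NaCl. Genes at log2 5 or more made up 43.2% of all genes on the NaCl array and 42.3% on the medium array. The 3′ minus 5′ difference of the ACTB control probe sets, a sign of RNA integrity, was 0.64 with NaCl, 0.95 in medium and 0.37 to 0.92 on the other arrays, so medium was the highest of the 15. For GAPDH it was -0.06 with NaCl and -0.11 in medium. The part of this in the genes where medium stood apart was not tested.

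Most but not all epithelial markers of the line were bright on both arrays. Of 9 colon epithelial markers 6 had log2 5 or more both with NaCl and in medium, among them EPCAM, an epithelial adhesion molecule, at 13.46 with NaCl and 13.60 in medium, and CDH17, an intestinal cadherin, at 9.60 with NaCl and 8.62 in medium. The other 3 lay under 5 on both arrays and are not named here. The lowest value of the 9 was 2.12 with NaCl and 2.06 in medium. All 5 markers of differentiated enterocytes lay under 5, at 1.23 to 2.47 with NaCl and 1.54 to 2.51 in medium. Of 3 goblet cell markers 1, TFF3, lay above 5, at 6.76 with NaCl and 7.24 in medium. All 6 fibroblast, 3 leukocyte and 3 endothelial markers with a probe set also lay under 5 on both arrays. On the other 13 arrays the highest value of a fibroblast marker was 8.26.

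Promoter sequences are shown for the osmolyte carrier gene that stood farthest from medium with both arrays well above background, for the chemokine gene with the largest difference and for the chemokine gene with the best known stress-responsive promoter among those that were lower. They are the 250 bases before the RefSeq start, 5′ to 3′ on the gene's own strand, in build GRCh38.p14. SLC5A3 and MRPS6 share 1 start at chr21:34073328-34073577 on the plus strand. CCL26 lies at chr7:75789747-75789996 on the minus strand and CXCL8 at chr4:73740319-73740568 on the plus strand. Capitals mark letters of a searched motif.
SLC5A3 and MRPS6: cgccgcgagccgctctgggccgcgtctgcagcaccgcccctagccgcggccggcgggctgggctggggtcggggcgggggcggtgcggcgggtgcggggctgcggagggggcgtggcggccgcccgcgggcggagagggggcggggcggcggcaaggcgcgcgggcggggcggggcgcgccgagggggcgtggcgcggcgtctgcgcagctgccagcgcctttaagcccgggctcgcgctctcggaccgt
CCL26: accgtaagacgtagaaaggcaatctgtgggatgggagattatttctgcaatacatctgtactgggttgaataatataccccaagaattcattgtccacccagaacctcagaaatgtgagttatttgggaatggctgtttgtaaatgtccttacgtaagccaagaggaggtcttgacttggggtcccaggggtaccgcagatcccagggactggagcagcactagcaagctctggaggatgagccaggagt
CXCL8: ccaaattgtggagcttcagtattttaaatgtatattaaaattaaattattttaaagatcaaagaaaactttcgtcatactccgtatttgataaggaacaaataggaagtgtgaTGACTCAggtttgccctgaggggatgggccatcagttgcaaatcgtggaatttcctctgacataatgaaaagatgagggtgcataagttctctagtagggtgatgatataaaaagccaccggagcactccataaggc

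These 3 sets of letters were searched on both strands of the 300-base promoters, which run from 250 bases before to 50 bases after the start. These were TGGAAA, the core of the tonicity element that NFAT5 binds, TGANTCA, the AP-1 site, and GAANNTTC, part of the heat shock element. TGGAAA was held by 52 of 324 promoters (16%) of genes that were higher with NaCl apart, by 973 of 6649 (14.6%) of all genes compared and by 21.1% of all 27305 promoters in the table. TGANTCA was held by 16 of 267 promoters (5.99%) of genes lower with NaCl apart and by 4.09% of those of all genes compared. GAANNTTC was held by 20 of 324 promoters (6.17%) of the higher genes with NaCl apart and by 4.44% of those of all genes compared. These shares of genes with NaCl apart lay within 2 percentage points of those of all genes compared. Among genes with medium apart, TGGAAA was held by 17.9% of the promoters of lower and 12.5% of those of higher genes. GAANNTTC was held by 3.97% and 1.79% of them. No test was run. The shared promoter of SLC5A3 and MRPS6 and that of CCL26 held none of these letters, and CXCL8 held 1 AP-1 match, whose first base is at -137 from the start. The promoters of S100A4, which was higher with NaCl, and of CCL20 and EGR1, which were lower, held none either and are not printed. No match says only that the letters are not in this window.

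Of the osmolyte carriers, SLC6A12 and SLC5A3 stood far above every other array. Of 21 genes listed for the hypertonic stress response 13 were compared, and 5 were higher with NaCl (against 8.93% of all genes compared) and 2 lower (against 7.67%), all 7 with NaCl apart. The list's median difference was 0.81, against 0.02 over all genes compared. The list was written with earlier results of these data known, so its counts and median are not independent of them. SLC6A12, the carrier for betaine and GABA, had log2 7.65 with NaCl and 1.19 in medium, and 1.37 to 2.06 (median 1.51) on the other 13 arrays. It was below the low limit of 5 on all arrays but NaCl, so only a bound can be given, of at least 2.65 on the log2 scale. SLC5A3, the sodium-coupled myo-inositol carrier, had 12.16 with NaCl and 8.63 in medium, an 11.6-fold difference, and 7.79 to 8.36 (median 7.94) on the others. Its other 3 probe sets had 12.17, 7.94 and 9.85 with NaCl and 7.36, 2.28 and 3.76 in medium, the last 2 of which lay under the low limit. MRPS6, a mitochondrial ribosomal protein gene that shares its start with SLC5A3 and was named for that reason after its value was seen, had 12.87 with NaCl and 9.97 in medium, and 9.63 to 10.11 on the others. On each of the 3 genes NaCl was the highest array and the remaining 14 lay close together.

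The other counted members of the list had both signs. TSC22D3, a glucocorticoid- and tonicity-responsive leucine zipper gene, had 10.21 with NaCl and 5.86 in medium, a 20.3-fold difference, with 4.74 to 7.31 on the other arrays. S100A4, a small calcium-binding protein, had 11.80 with NaCl and 6.93 in medium, 29.1-fold apart, with 7.47 to 9.18 on the others. WNK1, the kinase at the head of the chloride and volume cascade, had 10.76 with NaCl and 9.37 in medium, with 9.44 to 10.17 on the others. STK39, the kinase that WNK1 activates, went the other way, at 8.12 with NaCl and 9.19 in medium, with 8.66 to 9.42 on the others. HSPA4L, a heat shock protein of the HSP110 family, described in mouse as an osmotic stress protein, was at 4.52 with NaCl and 7.08 in medium on its brighter probe set, and at 5.69 with NaCl and 6.29 in medium on its other one.

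NFAT5 itself stayed under the counted size, with 11.29 on the NaCl array and 10.48 in medium, a difference of 0.81. The others had 10.27 to 11.11 (median 10.95), and 10 of the 13 lay nearer to NaCl. Its other 2 probe sets differed by 1.09 and 0.87. The first had 9.52 with NaCl and 8.42 in medium, with 8.18 to 9.33 (median 8.46) on the other 13 arrays. The second had 9.70 with NaCl and 8.83 in medium, with 8.51 to 9.53 (median 9.01) on them. On both, NaCl was the highest array and the median of the 13 lay nearer to medium, unlike on the probe set used. The taurine carrier SLC6A6 had 11.25 with NaCl and 10.71 in medium, 0.54 apart, with 10.27 to 11.69 (median 11.38) on the others, of which 12 of 13 lay nearer to NaCl. Of its other 4 probe sets, 1 had 7.67 with NaCl and 2.83 in medium, 1 had 6.81 with NaCl and 5.43 in medium, 1 had 8.02 with NaCl and 7.19 in medium, and the last lay under 5 on both arrays. Which transcripts these probe sets read was not tested. SLC38A2, a carrier for small neutral amino acids, had 13.30 with NaCl and 12.46 in medium, and all 13 other arrays, at 11.44 to 12.66, lay nearer to medium. SGK1, a kinase induced by cell shrinkage in other cells, had 9.31 with NaCl and 9.32 in medium. AKR1B1, the aldose reductase gene, was not analysed here, and the HSPA1A and HSPA1B probe sets carry several symbols and were not named.

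Among ion transport genes, 10 of 26 listed for sodium and potassium were compared, 2 were higher (against 8.93% of all genes compared) and 0 lower (against 7.67%), and the median difference was 0.57. ATP1B3, a beta subunit of the sodium pump, had 12.94 with NaCl and 11.57 in medium, 2.60-fold apart, and lay at 11.58 to 11.89 on the others. ATP1B1, another beta subunit, had 13.13 with NaCl and 12.33 in medium, which was under the counted size, and 11.83 to 12.52 on the others. In both beta subunits NaCl was the highest of the 15 arrays. FXYD3, a pump regulator, had 7.01 with NaCl and 5.04 in medium, and the others, at 5.83 to 8.02, were mostly nearer to NaCl. SLC12A2, the sodium-potassium-chloride cotransporter used for volume recovery, had 11.51 with NaCl and 11.001 in medium on the probe set used, and 11.70 with NaCl and 9.84 in medium on its other one. The other 13 arrays lay at 10.57 to 11.08 and at 9.80 to 10.00 on them, nearer to medium in each case.

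Of the chloride and bicarbonate genes 8 of 19 were compared, with 1 higher and 1 lower, near the shares over all genes compared. LRRC8A, the required subunit of the volume-regulated anion channel, had 9.84 with NaCl and 8.51 in medium, and LRRC8B, a partner subunit, had 6.33 with NaCl and 7.49 in medium. The other arrays were divided for LRRC8A, at 8.87 to 9.87, and lay at 7.20 to 7.68 for LRRC8B, all nearer to medium. SLC4A11, a membrane transporter of the bicarbonate carrier family, had 8.86 with NaCl and 5.02 in medium, 14.3-fold apart, with 6.25 to 6.85 on the others. Of 17 amino acid carriers compared 1 was higher (against 8.93% of all genes compared) and 3 lower (against 7.67%). SLC7A6 had 9.66 with NaCl and 8.09 in medium, and SLC7A2, a cationic amino acid carrier, had 3.87 with NaCl and 6.20 in medium.

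**Figure D3:**
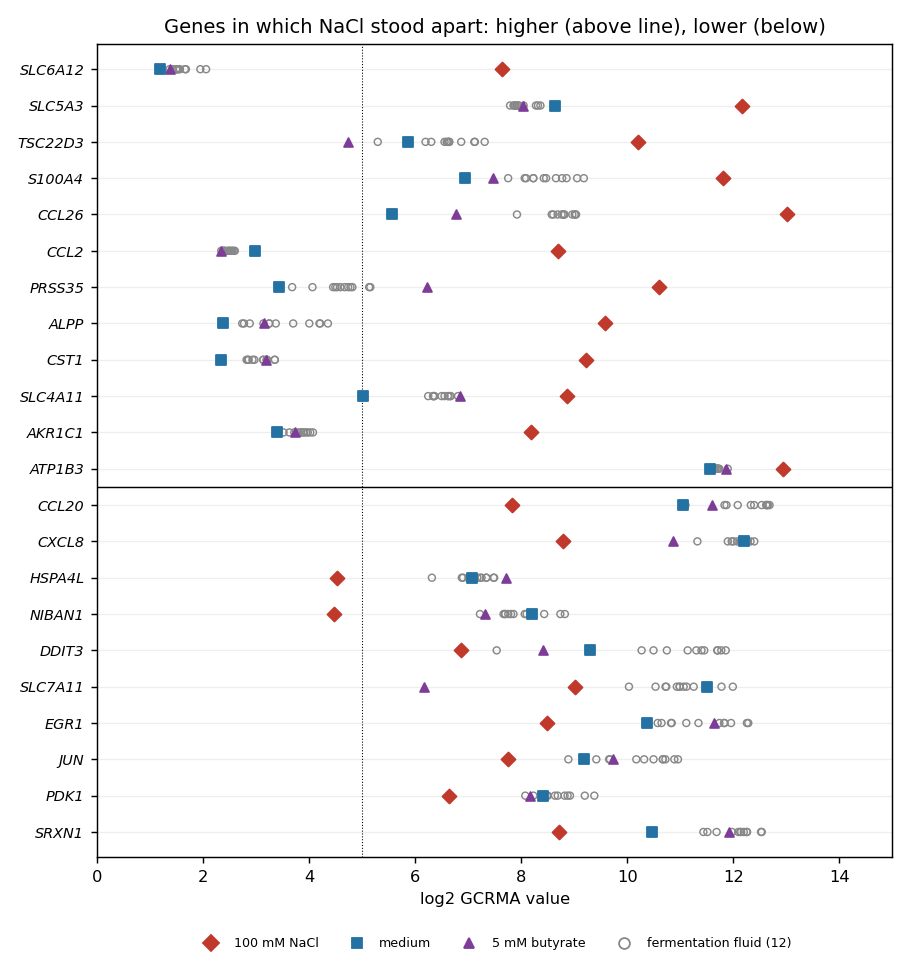
Log2 GCRMA values (horizontal axis) of genes in which NaCl stood apart, with the 100 mM NaCl array as diamonds, medium as squares, butyrate as triangles and the 12 fermentation fluids as open circles. Genes above the line were higher with NaCl and those below it lower, and the dotted line marks log2 5; SLC6A12 was at 7.65 with NaCl and at 1.19 to 2.06 on the 14 other arrays.

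The chemokines split in direction. Of 24 cytokine, chemokine and NF-kappaB response genes 15 were compared, and 3 were higher (against 8.93% of all genes compared) and 8 lower with NaCl (against 7.67%), with a median difference of -1.18. CCL26, the eosinophil attractant eotaxin-3, had the largest difference of all genes with both arrays at log2 5 or more, at 13.01 with NaCl and 5.56 in medium, 175-fold apart. On the others it lay between them, at 6.77 with butyrate and 7.92 to 9.03 with fluid. CCL2, a monocyte attractant, had 8.70 with NaCl, 2.98 in medium and 2.34 to 2.60 on the others, a bound of at least 3.70. NFKBIA, the inhibitor of NF-kappaB, had 11.71 with NaCl and 10.07 in medium, with 7.81 to 10.30 on the others. All 3 were highest on the NaCl array.

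The chemokines counted as lower are known to attract neutrophils or lymphocytes. CXCL8 (interleukin-8) had 8.80 with NaCl and 12.20 in medium, 10.5-fold apart, and 10.87 to 12.39 (median 12.14) on the others, and its other probe set had 7.19 with NaCl and 11.42 in medium. CCL20, which attracts cells bearing CCR6, had 7.83 with NaCl and 11.05 in medium, and 11.10 to 12.68 on the others. NaCl was the lowest array for both. CXCL2 had 7.62 with NaCl and 11.96 in medium but 6.16 to 11.48 on the others, which were divided. CXCL1 had 7.49 with NaCl and 10.52 in medium and was likewise divided, at 5.56 to 9.69. CXCL3 had 8.36 with NaCl and 11.68 in medium, and with 4.98 to 10.37 on the others it was medium that stood apart. In these last 3 genes medium was the highest of the 15 arrays. IL32 and IL18, a pair of epithelial cytokines, and TNFAIP3, an NF-kappaB inhibitor, differed by -2.34, -1.18 and -1.30 on the log2 scale, with all 13 others nearer to medium.

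Other genes with a wide gap between NaCl and all 14 other arrays belonged to no list. PRSS35, a serine protease-like gene, had 10.59 with NaCl and 3.42 in medium, and 3.68 to 6.22 on the others. ALPP, placental alkaline phosphatase, had 9.57 with NaCl and 2.38 in medium, with 2.74 to 4.35 on the others. CST1, a secreted cysteine protease inhibitor, had 9.22 with NaCl and 2.34 in medium, with 2.82 to 3.35 on the others. These 3 lay under log2 5 in medium, so the bounds were at least 5.59, 4.57 and 4.22. SYNE2, which encodes a nuclear envelope spectrin-repeat protein, had 9.39 with NaCl and 4.35 in medium, while 3 of its other 4 probe sets stayed under 3 on both arrays. GNA14, a G protein alpha subunit, had 7.24 with NaCl and 2.39 in medium, and RYR3, a calcium release channel, had 6.41 with NaCl and 1.35 in medium. FAM24B had 8.72 with NaCl and 5.30 in medium, and WDR83 had 8.81 with NaCl and 5.52 in medium.

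Several of these genes have a near-identical or neighbouring copy that was also counted, an observation made after the values were seen. ALPG, next to ALPP, had 6.70 with NaCl and 2.89 in medium. CST4, next to CST1, had 6.38 with NaCl and 2.97 in medium. AKR1C1, a hydroxysteroid-reducing aldo-keto reductase, had 8.18 with NaCl and 3.40 in medium, and its neighbour AKR1C2 had 6.64 with NaCl and 2.38 in medium. Probe sets of such close copies may read each other's transcripts, so these pairs are uncertain as separate genes. S100A3 and S100A2, neighbours of S100A4 with diverged sequences, had 7.83 and 7.999 with NaCl and 3.04 and 4.75 in medium. In all of these neighbours the other 13 arrays lay nearer to medium.

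ID1 and ID3, inhibitors of differentiation that BMP signals turn on, were higher with NaCl apart. ID1 had 11.26 with NaCl and 9.85 in medium, with 9.01 to 10.46 on the others, and ID3 had 9.57 with NaCl and 7.87 in medium, with 7.50 to 8.51 on the others. Of 11 TGF-beta and YAP target genes compared 4 were higher (against 8.93% of all genes compared) and 0 lower (against 7.67%), with a median difference of 0.61. TGFB1 was the third of the 4, at 8.92 with NaCl and 7.02 in medium, but all 13 others, at 8.29 to 9.29, lay nearer to NaCl. CCN1 was the fourth, at 12.16 with NaCl and 11.14 in medium, and was divided.

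Stress and nutrient genes were among those lower with NaCl apart. Of 18 genes of the ATF4 amino acid response 0 were higher (against 8.93% of all genes compared) and 7 lower (against 7.67%), all with NaCl apart, and the median was -0.79. DDIT3 (CHOP), a stress transcription factor, had 6.86 with NaCl and 9.31 in medium, with 7.54 to 11.86 (median 11.30) on the others. ATF3, another such factor, had 7.68 with NaCl and 9.50 in medium, with 8.56 to 12.01 on the others. SLC7A11, the cystine carrier, had 9.01 with NaCl and 11.50 in medium, and butyrate was the lowest of all at 6.17, with 10.03 to 11.99 with fluid. PCK2, a mitochondrial gluconeogenic enzyme, had 7.72 with NaCl and 9.64 in medium, with 7.92 to 10.43 on the others. ATF4 itself had 12.27 with NaCl and 12.39 in medium. For DDIT3 and ATF3 the other arrays mostly lay above medium, so NaCl and the fluids stood on opposite sides of it.

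The same order, NaCl lowest, then medium, then most or all of the others, was seen for the growth factor-induced genes EGR1 and JUN. It was also seen for some antioxidant and metal-responsive genes. EGR1, an immediate-early factor, had 8.49 with NaCl, 10.37 in medium and 10.57 to 12.28 on the others. JUN, a subunit of AP-1, had 7.75 with NaCl and 9.18 in medium, with 8.89 to 10.96 on the others. Of 16 immediate-early genes and MAPK phosphatases compared 2 were higher (against 8.93% of all genes compared) and 3 lower (against 7.67%), so these were not typical of their list. SRXN1, an NRF2 target that repairs peroxiredoxins, had 8.72 with NaCl, 10.47 in medium and 11.43 to 12.54 on the others. Of 11 NRF2 target genes compared 1, AKR1C1, was higher (against 8.93% of all genes compared) and 4 were lower (against 7.67%). All 7 metallothionein and zinc response genes compared had differences below 0, from -1.02 to -0.29, and MT1F and SLC30A1, a zinc exporter, reached the counted size at -1.02 each (against 7.67% of all genes compared). Both fell short of that size with arrays centred on their median and with the mean of probe sets. CDKN1A (p21), a cell cycle inhibitor, had 7.79 with NaCl, 8.92 in medium and 9.84 to 11.03 on the others.

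Glucose genes, 4 in number, were lower with NaCl apart. PDK1, which holds pyruvate back from the mitochondrion, had 6.64 with NaCl and 8.41 in medium, with 8.08 to 9.38 on the others. PFKM and PFKL, subunits of phosphofructokinase, had 7.76 and 6.22 with NaCl and 9.48 and 7.38 in medium. SLC2A1, the glucose carrier GLUT1, had 8.53 with NaCl and 10.23 in medium, with 9.84 to 11.41 on the others. These 4 of the 18 glycolysis genes compared stand against 7.67% of all genes compared, the other 14 lay within 1 of medium, and the list's median was -0.07. Of the genes compared for cholesterol synthesis 1 of 15 was lower, and of those for fatty acid synthesis 3 of 8 were lower (against 7.67% of all genes compared). None of either list was higher (against 8.93%). For cholesterol synthesis the share was about the background, but 13 of the 15 lay below 0 and the median was -0.35. For fatty acid synthesis 7 of the 8 lay below 0 and the median was -0.48. Over all genes compared the median was 0.02. HMGCS1, an enzyme of cholesterol synthesis, had 9.77 with NaCl and 11.45 in medium. SCD, the stearoyl desaturase, had 10.50 with NaCl and 11.84 in medium, and its regulator SREBF1 had 5.69 with NaCl and 6.79 in medium. The remaining one, ACACA, a carboxylase at the start of fatty acid synthesis, was divided.

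Other genes lowest on the NaCl array had no common list. NIBAN1, a stress-related gene, had 4.48 with NaCl and 8.20 in medium, with 7.22 to 8.82 on the others, so it was lower by at least 3.20. ETS1, a transcription factor, had 5.48 with NaCl and 8.18 in medium, with 8.78 to 9.62 on the others. HDAC9, a histone deacetylase, had 2.87 with NaCl and 6.31 in medium, with 5.57 to 6.69 on the others, so it was lower by at least 1.31. GALNT12, which starts mucin-type glycans, had 6.88 with NaCl and 9.56 in medium. EXO1, a DNA repair exonuclease, had 5.72 with NaCl and 8.89 in medium, and WDHD1, a replication factor, had 4.84 with NaCl and 7.60 in medium. CLDN1, a tight junction claudin, had 6.26 with NaCl and 7.52 in medium, and LCN2, the antimicrobial lipocalin, had 11.52 with NaCl and 12.94 in medium. BHLHE40, a clock-linked repressor, had 6.37 with NaCl and 8.30 in medium, with 7.71 to 10.03 on the others.

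Heat shock genes gave no common shift. Of 12 compared 0 were higher (against 8.93% of all genes compared) and 1, HSPA4L, was lower, near the 7.67% of all genes compared. The median of 0.02 turned negative when probe sets were averaged (-0.03) and when arrays were quantile normalized again (-0.07). HSPH1 and DNAJA1, a cytosolic chaperone and a cochaperone, had 11.56 and 12.53 with NaCl and 10.68 and 11.71 in medium, with all 13 others nearer to medium. Endoplasmic reticulum chaperones had 0 higher (against 8.93% of all genes compared) and 1 lower of 16, near the 7.67% of all genes compared. No gene of 23 for oxidative phosphorylation and no gene of 10 for ribosomal proteins was counted, against 16.6% of all genes compared.

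**Figure D4:**
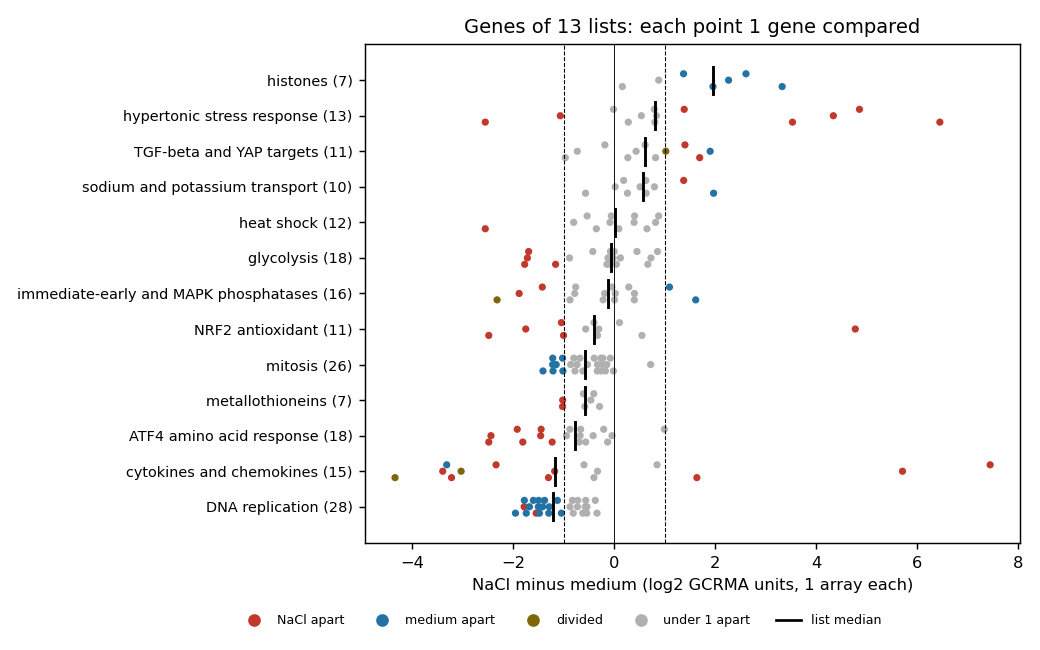
NaCl minus medium in log2 GCRMA units (horizontal axis) for the genes compared in 13 lists, 1 point per gene, coloured by class, with black bars at each list's median and the number compared in brackets. Of the 7 histone genes (median 1.96) 5 are coloured as medium apart and of the 28 DNA replication genes (median -1.21) 14 are, whereas the counted genes of the ATF4 list (median -0.79) are all NaCl apart.

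In the second class, at least 11 of the other 13 arrays lay nearer to NaCl than to medium. AQP3, a water and glycerol channel of the colon surface, had 10.52 with NaCl and 4.88 in medium, a bound of at least 5.52, but 10.20 to 12.72 (median 11.97) on the others. Its other 2 probe sets differed less. They had 5.57 and 4.04 with NaCl and 3.40 and 2.26 in medium, with 4.92 to 9.09 and 3.62 to 7.35 on the others. The size of the AQP3 difference thus rests on 1 probe set. Only 1 of 10 aquaporin genes was bright enough to compare. SCIN, an actin-severing protein, had 9.52 with NaCl and 3.74 in medium, with 7.14 to 8.61 on the others. ABCG1, a sterol exporter, had 7.78 with NaCl and 1.87 in medium, with 6.49 to 8.52 on the others. CLIC3, an intracellular chloride channel protein, had 7.83 with NaCl and 3.91 in medium, with 7.85 to 9.02 on the others. In these 4 genes every other array lay nearer to NaCl, and medium was the lowest of the 15.

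Hormone and lipid mediator enzymes followed. AKR1C3, a prostaglandin- and steroid-reducing enzyme, had 9.92 with NaCl and 5.85 in medium, 16.7-fold apart, with 9.03 to 9.57 on the others, unlike its relatives AKR1C1 and AKR1C2. PTGS1, the constitutive cyclooxygenase, had 6.37 with NaCl and 1.84 in medium, with 4.62 to 7.11 on the others. HPGD, which inactivates prostaglandins, had 9.36 with NaCl and 7.16 in medium, with 8.14 to 9.09 on the others. PTGES, a prostaglandin E synthase, was divided, at 8.59 with NaCl, 5.81 in medium and 6.79 to 7.45 on the others. These 3 of 8 genes compared in the prostaglandin list were higher (against 8.93% of all genes compared) and 0 were lower (against 7.67%). PTGS2, the inducible cyclooxygenase, had 6.18 with NaCl and 6.33 in medium. CYP1A1 and CYP1B1, targets of the aryl hydrocarbon receptor, had 7.51 and 10.16 with NaCl and 4.95 and 8.70 in medium, with all others nearer to NaCl. They were the 2 higher of 7 aryl hydrocarbon receptor targets compared (against 8.93% of all genes compared). Of the 7, 2 others were lower (against 7.67%), and the list's median was 0.02. The lower ones were ALDH3A1, an aldehyde dehydrogenase, at -1.22 and divided, and NQO1, a quinone reductase, at -1.004 with NaCl apart, which fell short of the counted size with centring on the array median.

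Medium also stood apart in cell cycle genes of both directions. CDKN1C (p57), an inhibitor of cyclin-dependent kinases, had 9.45 with NaCl and 5.98 in medium, with 8.27 to 11.13 on the others. Of 7 histone genes compared 5 were higher (against 8.93% of all genes compared) and 0 lower (against 7.67%), all 5 with medium apart, and the median was 1.96, or 1.38 with low values set to 5. H2BC21 had 7.19 with NaCl and 3.86 in medium, and 5.68 to 9.67 on the others. H2BC5 had 10.80 with NaCl and 8.54 in medium, with 10.08 to 11.34 on the others, and H1-2 had 11.38 with NaCl and 9.42 in medium, with 10.69 to 12.36. On each of these 3 genes medium was the lowest of the 15 arrays.

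Of 28 DNA replication genes compared 0 were higher (against 8.93% of all genes compared) and 16 lower (against 7.67%). All 28 lay below 0, and the median was -1.21. In 14 of the 16 it was medium that stood apart. CDC45, a helicase cofactor, had 5.43 with NaCl and 7.39 in medium, with 4.45 to 5.44 on the others. CDC6, a licensing factor, had 8.30 with NaCl and 10.08 in medium, with 8.42 to 9.24 on the others. MCM2, a subunit of the replicative helicase, had 9.39 with NaCl and 10.88 in medium, with 8.39 to 9.67 on the others. The remaining pair were RRM2, a ribonucleotide reductase subunit, at 11.08 with NaCl and 12.87 in medium with 12.41 to 12.98 on the others, and PRIM1, the primase, at 7.64 with NaCl and 9.19 in medium. For these NaCl was the lowest of the 15 arrays.

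Mitosis genes differed less. Of 26 compared 0 were higher (against 8.93% of all genes compared) and 7 lower (against 7.67%), all 7 with medium apart. The median was -0.57. CCNA2 (cyclin A2) had 9.04 with NaCl and 10.45 in medium, with 7.15 to 9.57 on the others, and AURKB, a mitotic kinase, had 7.18 with NaCl and 8.40 in medium, with 5.15 to 7.78 on the others. CCNB1 (cyclin B1) and CDC20, which act at mitosis, had 10.95 and 10.73 with NaCl and 11.02 and 10.74 in medium, and lay lower on the others, at 8.24 to 10.94 and 8.64 to 10.67. Of 16 ribosome biogenesis genes 2 were lower, both with medium apart, which is near the 7.67% of all genes compared. However, 13 of the 16 lay below 0, and the median was -0.45, against 0.02 over all genes compared. NOLC1, a nucleolar protein, had 10.88 with NaCl and 12.05 in medium.

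**Figure D5:**
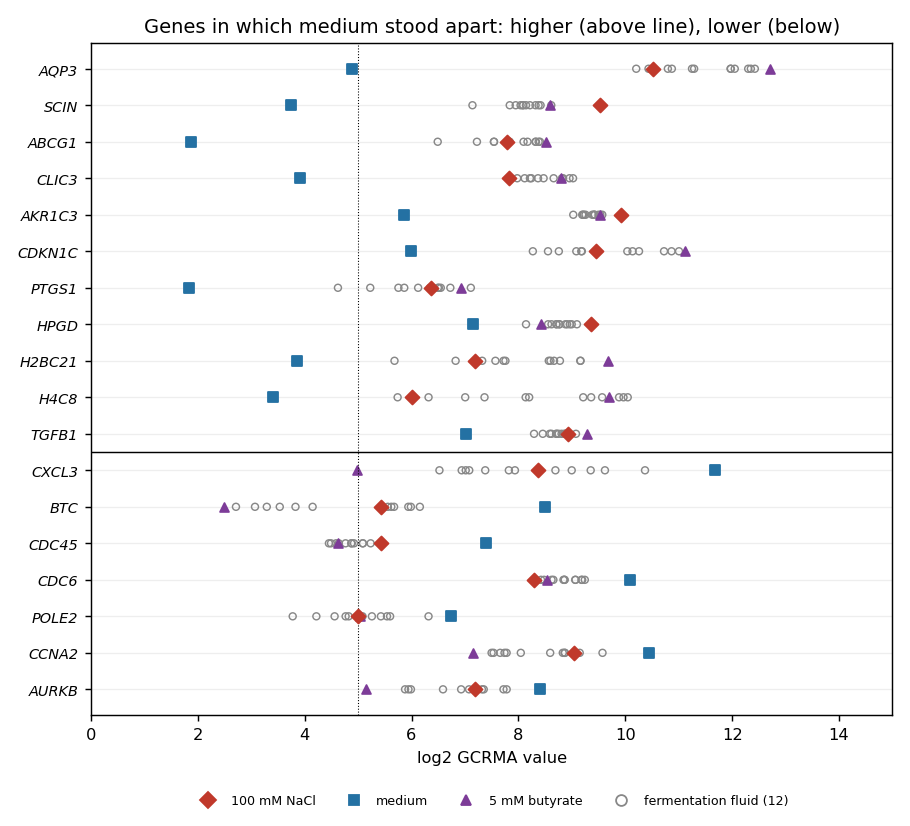
Log2 GCRMA values (horizontal axis) of genes in which medium stood apart, with the 100 mM NaCl array as diamonds, medium as squares, butyrate as triangles and the 12 fermentation fluids as open circles. Genes above the line were higher with NaCl and those below it lower, and the dotted line marks log2 5; AQP3 was at 4.88 in medium and at 10.20 to 12.72 on the 14 other arrays.

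Further genes lower with medium apart included BTC, a ligand of the EGF receptor, at 5.43 with NaCl and 8.50 in medium, with 2.49 to 6.16 on the others. CLDN2, the cation-permeable claudin, had 6.63 with NaCl and 8.46 in medium, with 3.04 to 6.87 on the others. APOL6, an apolipoprotein L, had 5.70 with NaCl and 7.37 in medium, with 2.31 to 3.80 on the others, and RBM3, a cold-inducible RNA-binding protein, had 8.01 with NaCl and 9.59 in medium. In CLDN2 and APOL6 the others mostly or all lay still lower than NaCl, and in BTC they lay on both sides of it.

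In the divided genes the other arrays were shared between NaCl and medium. TIMP3, an inhibitor of matrix metalloproteinases, had 10.53 with NaCl and 4.23 in medium, with 6.21 to 8.79 on the others, and its 3 other probe sets had 7.69, 9.57 and 8.57 with NaCl and 2.17, 3.47 and 4.13 in medium. BCL6, a transcriptional repressor, had 11.22 with NaCl and 7.82 in medium, 10.5-fold apart, with 8.94 to 10.10 on the others. MYBL2, a cell cycle transcription factor, had 5.26 with NaCl and 7.86 in medium, with 5.74 to 7.83 on the others. HELLS, a chromatin remodeller of dividing cells, had 8.09 with NaCl and 10.84 in medium, with 8.96 to 10.31 on the others. In all 4 the NaCl and medium arrays were the 2 extremes of the 15. BMAL1, a core clock gene, had 9.23 with NaCl and 6.89 in medium, with 6.96 to 9.31 on the others. UCA1, a long noncoding RNA, had 11.47 with NaCl and 6.70 in medium and also lay in between on the others, at 8.02 to 9.96, but 11 of the 13 were nearer to NaCl.

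Where a counted gene had further bright probe sets of its own, these mostly agreed. There were 575 such probe sets for 398 genes, of which 539 (93.7%) differed in the same direction and 367 (63.8%) by at least 1. Only 3, of the genes ERO1B and IDS, differed by at least 1 in the opposite direction. A total of 454 counted genes had 1 probe set and no such check. At the threshold itself, SSH2 and CARHSP1 were the last counted as higher, and LRRC37B and INAVA (0.998) the first left out. On the lower side SLC30A9 and C4orf46 (both -1.002) were the last counted, and MPV17 and ANXA4 (both -0.998) the first left out.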

How the data were processed

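Total RNA from each treatment was hybridised to 1 Affymetrix array, 15 arrays in all. The authors deposited log2 values of 54675 probe sets, made with GCRMA (background correction, normalization and summary) per the submitters' processing notes, which give no version. That the scale is log2 was read from the values, which run from 0.173 to 14.46. Raw intensities were not analysed here. Probe sets were named by the platform annotation: 41097 had 1 gene symbol, 1801 several and 11777 none, and only the first were used.

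Differences were taken in Python 3.11.15 with pandas 2.3.3 as NaCl minus medium. A difference in which the dimmer array lay under 5 is a bound, the brighter value minus 5, given as "at least" where marked. Values under 5 printed without it carry the same limit. With 1 array a side no test was run, and precision is limited by the number of arrays. The counting was tested on simulated data. A total of 44 gene lists with 686 genes was written from general knowledge. The genes named are the largest differences and bounds, the widest margins of each class, up to 4 genes of each list and 12 chosen osmotic stress genes. Genes such as WNK1, STK39, NFKBIA, MCM2, CCNB1, CDC20, ATF4 and PTGS2 were added from the lists after their values were seen. The members and lists were chosen with earlier results of these data known. Promoters came from RefSeq (GRCh38.p14). Alternatives were the signal limit, the size of the difference, the probe set rule, the scaling and the arrays used for the split.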

Additional observations from a re-analysis of the deposited data

Results flagged for a closer look

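In 15 sets of 4 arrays (1 polydextrose concentration, 4 vessels) 6 values lay far from their 3 companions, by Dixon's criterion for the gap over the range. All 6 belonged to vessel 1, and they overlap, since the shares of higher and of lower genes add up to the share of all counted genes. The array of 0% vessel 1 was nearer to medium than to NaCl in 75.5% of all counted genes and in 79.6% of the lower ones. The array of 2% vessel 1 was nearer to medium in 67.1% of the higher genes, and that of 1% vessel 1 in 69.2% of the lower ones. The ACTB 3′ minus 5′ difference was 0.62 in 2% vessel 1, and the GAPDH difference was 0.0416 in 1% vessel 1. The 4 vessels of a set held different fluids and are not replicates. Vessel 2 against vessel 1 differed in 124 to 436 genes, against 5 to 56 for neighbouring vessels 2 to 4. This criterion can also pick out some sets by chance alone, and the part of either was not tested.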

How the results depend on the processing

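A signal limit of 5, of 7 or none, low values set to 5, a repeated quantile normalization and centring on the array median kept the 4 counts (higher, lower, NaCl apart, medium apart) within 1.5 times of 703, 604, 704 and 380. Quantile normalization gave more lower than higher genes, 622 higher and 651 lower. Some changes to the split alone also kept NaCl apart and medium apart within 1.5 times of 704 and 380. These were at least 7 of 13 arrays (799 NaCl apart, 508 medium apart), only the 12 fluid arrays (715 and 387) and leaving out vessel 1 (683 and 405). The size of the difference and the probe set rule moved all 4 counts further. With a difference of 1.5 there were 286 higher, 219 lower, 281 with NaCl apart and 144 with medium apart. With a 1.5-fold difference there were 1569, 1395, 1526 and 884. With the mean of all probe sets of a gene there were 433, 373, 429 and 252, and with every probe set on its own 1217, 1045, 1211 and 611. Asking for all 13 arrays on 1 side left 557 genes with NaCl apart and 219 with medium apart. Of 125 counted genes among those the naming rule gave, 121 stayed counted with centring, 124 with quantile normalization, 125 with low values at 5 and 107 with the mean of probe sets, and 0 turned in sign. Those that fell short with the mean of probe sets included HDAC9, PDK1, AURKB, SREBF1, ACACA, NOLC1, LRRC8B, SLC7A2 and RBM3. The median difference of all genes compared lay between 0.01 and 0.04 under each scaling. Signal under log2 5 allows only bounds, which touches 129 of the higher and 64 of the lower genes. No paired analysis was possible because NaCl and medium had 1 array each.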
